A study of Mus musculus with 16 samples.

Results

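The thrombospondins are a family of 5 secreted matrix glycoproteins encoded in the mouse by Thbs1, Thbs2, Thbs3, Thbs4 and Comp (cartilage oligomeric matrix protein, also called thrombospondin 5). They were taken by symbol from the 25719 genes counted in mouse tail tendon fascicles, the collagen-rich strands of the tail, and all 5 were among the 14803 genes tested. The series compares 8 libraries labelled wild type with 8 knockout libraries of ScxCre;Vhlf/f mice, in which Cre recombinase driven by the tendon gene Scx deletes floxed Vhl in Scx-lineage cells. Vhl encodes the ubiquitin ligase subunit that marks HIF1α for degradation, and the series asks how HIF1α acts in overloaded and diseased tendon. Whether the wild type mice carried the floxed allele or the driver, and the age and sex of the mice, are not given in the sources used here. Whole strands were used without sorting, so tenocytes and any other cells present contribute to a value, and a lower level cannot be told apart from fewer cells that make the transcript.

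Thrombospondins are matricellular proteins: they sit in the matrix, bind collagens, proteases, growth factors and cell surface receptors, and regulate how cells and fibrils interact. Thbs1 and Thbs2 form trimers that carry type 1 repeats, the domains through which they act on CD36 and restrain vessel growth, and thrombospondin 1 can also activate latent TGF-beta. Thbs3, Thbs4 and Comp form pentamers without type 1 repeats. In tendon, thrombospondin 4 and COMP are abundant matrix proteins that bind collagen and take part in fibril assembly, and thrombospondin 4 is also found where muscle attaches to tendon.

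Wild type libraries held Vhl at 20.5 ± 3.69 CPM (SD, n = 8) and knockout libraries at 9.35 ± 1.25 CPM, without overlap, so each library followed its label. CPM are counts scaled to a common library size after TMM normalisation. Total counts per library ran from 10488355 to 18753254, and the lowest count of any member in any library was 661. Of 9 tenocyte markers 8 were lower in the knockout and none was higher, whereas 7 of 9 tested endothelial and 6 of 9 tested mural cell markers were higher. The mural marker Cspg4 was lower, by 0.27 on the log2 scale, and no tested endothelial marker was called lower. Summed skeletal muscle markers spanned 50.9 to 4403 CPM over wild type and 147 to 8570 CPM over knockout libraries. Wild type library 3 stood apart by its low type I collagen. Knockout libraries 5, 6 and 8 and wild type library 8 stood apart by Scx, which was at 479 to 1251 CPM there and at no more than 140 CPM in the other 12. Another gene, Bop1, also set them apart, at 109 to 920 CPM against 20.7 to 84.0 CPM in the other 12. Values without these libraries are given where a call or a ratio changed.

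The start regions of the members were looked at for the core of the hypoxia response element, the short motif that HIF binds. RefSeq windows (build GRCm38.p6) of 250 bases before to 50 after the gene start were found for Thbs2, Thbs3 and Thbs4. The counts were made on GRCm39, so these positions hold for GRCm38.p6 only. The motifs searched were ACGTG and GCGTG on both strands, and 44.0% of 32544 distinct windows of this length hold at least 1 of them. The Thbs4 window, at chr13:92794769-92795068 on the minus strand, is shown because it belongs to the most abundant member and holds 1 match. The match, in capitals, is to GCGTG on the opposite strand. The Thbs3 window, at chr3:89214930-89215229 on the plus strand, is shown because its gene lies head to head with Mtx1, whose level it follows most closely in the libraries. It holds no match, and neither does the Thbs2 window. A match describes the letters only.

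Thbs4: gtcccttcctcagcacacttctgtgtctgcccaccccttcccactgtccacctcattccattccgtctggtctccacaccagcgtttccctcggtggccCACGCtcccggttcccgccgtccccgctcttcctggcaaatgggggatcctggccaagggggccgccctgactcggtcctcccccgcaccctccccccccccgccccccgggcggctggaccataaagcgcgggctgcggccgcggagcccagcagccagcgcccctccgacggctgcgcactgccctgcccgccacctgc
Thbs3: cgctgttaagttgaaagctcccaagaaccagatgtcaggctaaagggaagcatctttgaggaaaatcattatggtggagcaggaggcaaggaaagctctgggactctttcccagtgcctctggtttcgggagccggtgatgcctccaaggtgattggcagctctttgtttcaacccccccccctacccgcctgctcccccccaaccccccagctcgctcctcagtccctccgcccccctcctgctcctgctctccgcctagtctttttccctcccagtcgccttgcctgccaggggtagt

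The 5 transcripts were present at very different levels. Per kb of annotated exon, which allows genes to be compared, Thbs4 was highest at 1114 ± 187 CPM per kb in wild type and 1131 ± 194 in knockout libraries (SD, n = 8). This placed it at rank 19 of 14779 tested genes with a length in the wild type and at rank 10 in the knockout. Comp followed at 320 ± 27.5 and 419 ± 102 CPM per kb, ranks 68 and 37. Thbs2 reached 131 ± 22.1 and 124 ± 13.6 CPM per kb, Thbs1 68.3 ± 48.6 and 102 ± 29.6, and Thbs3, the least abundant, 21.2 ± 2.96 and 17.9 ± 4.42. Thbs4 exceeded Comp and Comp exceeded Thbs2 in all 16 libraries, with no overlap between the levels of neighbours within a genotype. Thbs2 exceeded Thbs1 in 7 of 8 wild type and 6 of 8 knockout libraries, so the order of these 2 is within their spread. Thbs1 exceeded Thbs3 in all 16 libraries, although the wild type ranges of these 2 overlapped. Thbs4 made up 67.0% ± 4.72 of the family's per-length level in wild type libraries and 62.8% ± 3.96 in knockout libraries, and Comp 19.6% ± 3.13 and 23.4% ± 5.18. The order was the same per kb of coding sequence.

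**Figure D1:**
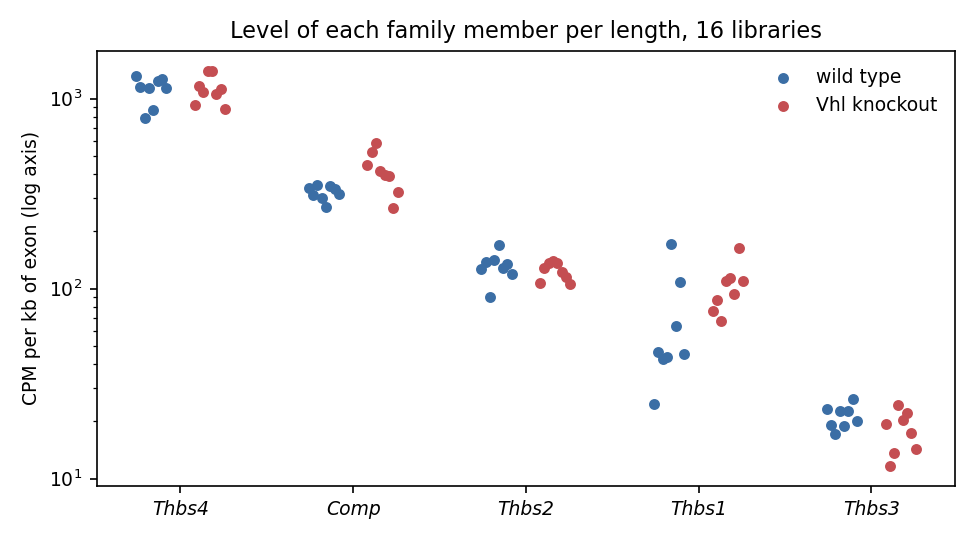
Level of each thrombospondin in CPM per kb of exon on a log axis, with 1 point per library, wild type in blue and Vhl knockout in red (n = 8 each). Thbs4 lies above Comp and Comp above Thbs2 in every library, and Thbs1 spans the widest range.

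Comp was the only member to pass the test between genotypes with TMM scaling and genotype as the only term. Of the 5 members 1 was called at an adjusted p under 0.05, where 48.3% of all tested genes were (25.6% higher and 22.7% lower), and no member had groups that did not overlap, where 19.4% of tested genes did (10.8% higher and 8.61% lower). With the replicate number as a block 3 members were called, where 47.4% of tested genes were. With total counts 4 members were called, where 65.4% of tested genes were. With 5 genes these shares are a description only. The median log2 fold change of all tested genes was 0.02.

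COMP binds collagen fibrils and other matrix proteins through its pentameric arms and is a long-used marker of tendon and cartilage matrix. Comp (ENSMUSG00000031849, chromosome 8) had a lowest, median and highest value of 797, 961 and 1041 CPM in the wild type and of 789, 1205 and 1733 CPM in the knockout. In the knockout 6 of 8 libraries lay above every wild type library, whereas knockout 7, at 789 CPM, was the lowest of all 16 and knockout 8, at 960.5 CPM, lay within the wild type range. The mean rose from 951 ± 81.5 to 1243 ± 303 CPM (SD, n = 8), a fold change of 1.31 and a log2 fold change of 0.39 (SE 0.128, edgeR quasi-likelihood test, Benjamini-Hochberg adjusted p = 0.0177). The spread was also wider in the knockout, with a coefficient of variation of 24.4% against 8.58%. The call held in all 28 alternatives, at log2 fold changes of 0.30 to 0.96 and adjusted p-values of 4.85e-05 to 0.0431.

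Thbs4, whose product binds collagen and regulates fibril packing in tendon, is the most abundant thrombospondin here. It had a lowest, median and highest value of 2591, 3777 and 4309 CPM in the wild type and of 2887, 3635 and 4617 CPM in the knockout. The 2 lowest values were those of wild type 3 and 5 and the 2 highest those of knockout 4 and 5, and the other 12 libraries intermixed. The means of Thbs4 (ENSMUSG00000021702, chromosome 13) were 3665 ± 617 and 3720 ± 637 CPM, and the log2 difference of 0.02 had a 95% interval of -0.22 to 0.27 (adjusted p = 0.901). With libraries scaled to total counts it passed, at 0.34 (adjusted p = 0.0118), where the median of all tested genes was itself 0.32.

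Thbs2, a trimeric member that regulates collagen fibril growth and restrains vessel formation, had a similar level in both genotypes. Its lowest, median and highest values were 633, 917 and 1183 CPM among wild type and 739, 879.8 and 977 CPM among knockout libraries. Wild type 3 was lowest and wild type 5 highest, and every knockout library lay between them. Thbs2 (ENSMUSG00000023885, chromosome 17) averaged 916 ± 155 and 868 ± 95.5 CPM, a log2 difference of -0.08 with a 95% interval of -0.28 to 0.13 (adjusted p = 0.571). With total counts the sign turned and the gene passed, at 0.23 (adjusted p = 0.0497), less than the median gene on that scale.

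Thbs1 encodes thrombospondin 1, which is made by many cell types, released by platelets and induced rapidly by growth factors and stress. Thbs1 (ENSMUSG00000040152, chromosome 2) was the most variable member. Its lowest, median and highest values were 151, 277 and 1042 CPM among wild type and 409.9, 616 and 990.1 CPM among knockout libraries. All 8 knockout libraries exceeded the wild type median and 6 wild type libraries lay below every knockout library, but wild type 5, at 1042 CPM, was the highest of all 16 and wild type 7 reached 660 CPM. The means were 415 ± 295 and 622 ± 180 CPM, and the log2 difference of 0.58 (SE 0.341) did not pass the test, with a 95% interval of -0.08 to 1.25 (adjusted p = 0.171). Without wild type 5 it passed, at 0.93 (adjusted p = 0.00798), and with the replicate number as a block at 0.80 (adjusted p = 0.0106). With total counts it passed too, at 0.88 (adjusted p = 0.0407). Wild type 5 also had the highest summed level of skeletal muscle, endothelial and mural markers among the wild type libraries, and the part of those cells in its Thbs1 value was not tested. Of Thbs1 exon bases 3.43% overlap an antisense non-coding gene that is not among the counted genes.

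Thbs3 is the least studied pentameric member and is expressed in skeletal tissues. It had a lowest, median and highest value of 82.4, 103 and 127 CPM in the wild type and of 56.2, 88.7 and 117 CPM in the knockout. Knockout 2, 3 and 8 lay below every wild type library, and the other 5 intermixed with them. The means of Thbs3 (ENSMUSG00000028047, chromosome 3) were 102 ± 14.3 and 86.3 ± 21.3 CPM, and the log2 difference of -0.25 (SE 0.134) did not pass, with a 95% interval of -0.51 to 0.02 (adjusted p = 0.140). It passed under limma-voom with sample quality weights, at -0.34 (adjusted p = 0.0458), with the replicate block, at -0.27 (adjusted p = 0.0330), and without knockout 4, at -0.32 (adjusted p = 0.0485). With total counts the sign turned, to 0.07. Thbs3 lies head to head with Mtx1, which encodes a mitochondrial import protein. The RefSeq starts of the pair are 1273 bases apart. Annotated exons of Mtx1 share 6.59% of the Thbs3 exon bases on the other strand, so without known strand the counts of the pair are uncertain. Mtx1 was at 34.9 ± 2.86 CPM in wild type and 33.0 ± 5.78 CPM in knockout libraries, with a log2 difference of -0.08 (adjusted p = 0.513).

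**Figure D2:**
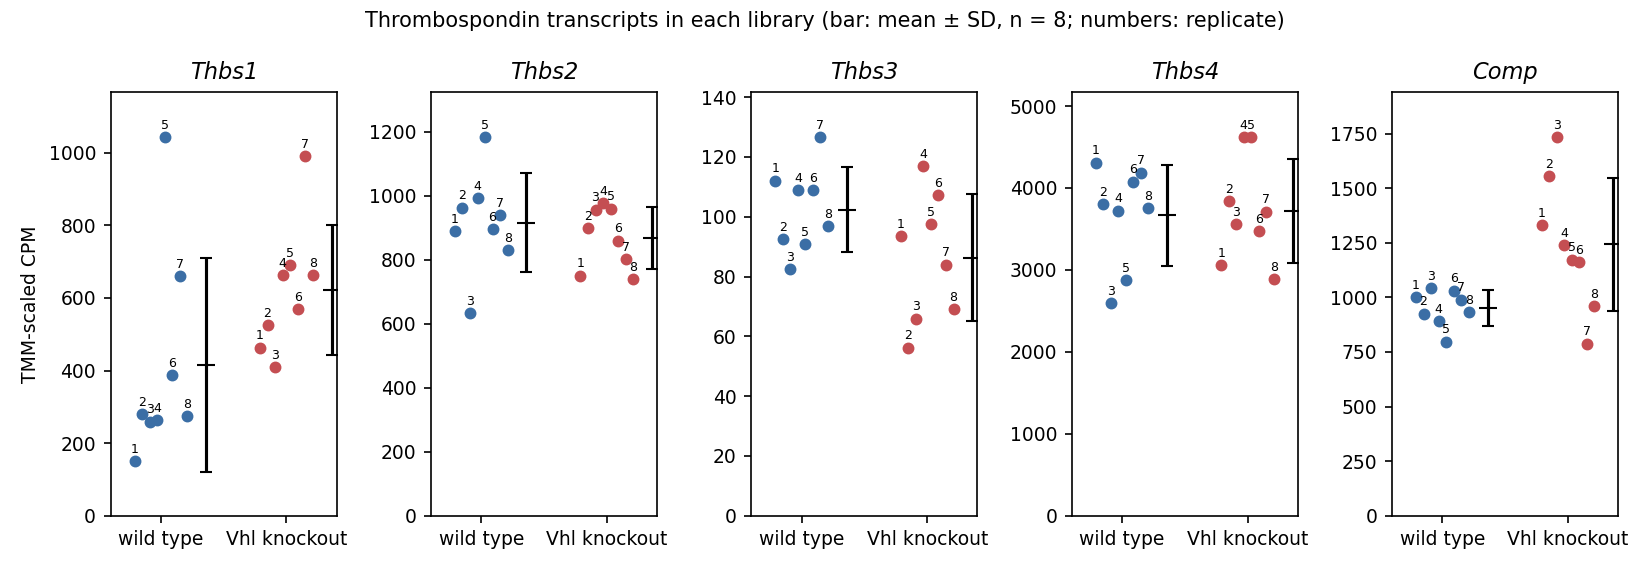
Level of each member in TMM-scaled CPM, with 1 numbered point per library, wild type in blue and Vhl knockout in red, and the mean ± SD of 8 libraries in black. Comp lies above all wild type libraries in 6 of 8 knockout libraries, and Thbs1 reaches its highest value, 1042 CPM, in wild type 5.

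Scaling moved every member by about the same amount, as the plot of fold changes by setting shows. Total counts raised the log2 fold changes of the 5 members by 0.29 to 0.32, and the median of all tested genes from 0.02 to 0.32. On that scale 65.4% of tested genes passed, 85.4% of them higher, against 53.0% higher on the TMM scale. With total counts Thbs2, at 0.23, and Thbs4, at 0.34, thus lay near the median gene.

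**Figure D3:**
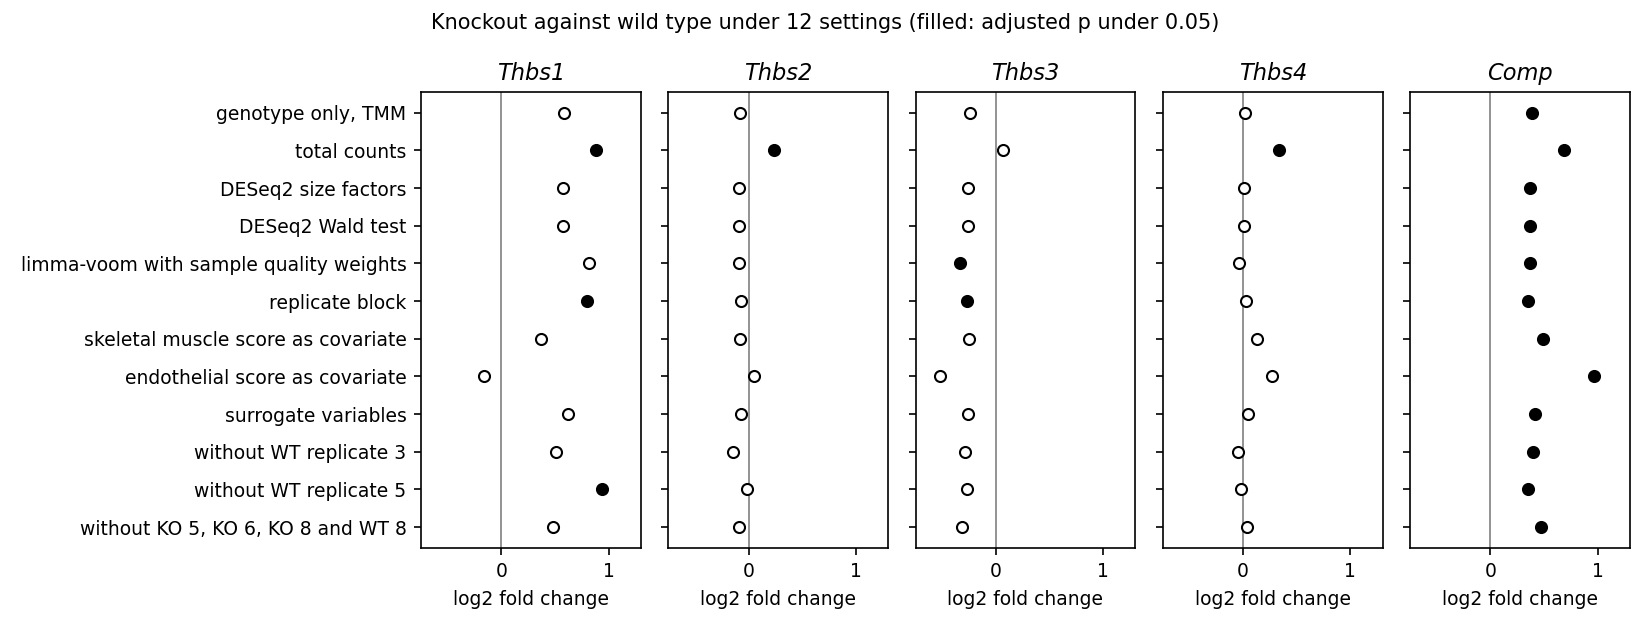
Log2 fold change of each member, knockout against wild type, with 1 row per setting and filled points where the adjusted p is under 0.05. Comp is filled at each setting shown, at 0.35 to 0.96. Thbs2 lies between -0.15 and 0.23, and Thbs4 between -0.046 and 0.34 with its 2 highest values at total counts and the endothelial covariate.

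Ratios between members within a library do not depend on the scaling of libraries. Of the 10 possible pairs, 5 had an unadjusted exact p under 0.05 and none passed after Benjamini-Hochberg adjustment over the 10. Members thus could not be shown to change by different amounts at this threshold. The lowest adjusted value was that of Thbs3 to Comp, whose mean log2 ratio was -3.22 ± 0.213 in wild type and -3.85 ± 0.591 in knockout libraries (SD, n = 8; difference -0.63, two-sided exact permutation test, p = 0.00528, adjusted p = 0.0528). All 8 knockout libraries were below the wild type median of this ratio and 4 were below every wild type library. The Thbs1 to Thbs3 ratio differed by 1.07 (exact permutation test, p = 0.0109, adjusted p = 0.0545), and Thbs1 to Thbs2 by 0.86 (exact permutation test, p = 0.0168, adjusted p = 0.0560). Thbs2 to Comp differed by -0.42 (exact permutation test, adjusted p = 0.0680) and Thbs3 to Thbs4 by -0.30 (exact permutation test, adjusted p = 0.0836). Thbs4 to Comp, the ratio of the 2 abundant members, was 1.93 ± 0.261 in wild type and 1.60 ± 0.414 in knockout libraries, a difference of -0.33 (exact permutation test, p = 0.0796, adjusted p = 0.114). These calls changed with single libraries: without wild type 5 the adjusted exact p of Thbs1 to Thbs3 was 0.00311, and without knockout 7 that of Thbs3 to Comp was 0.0140.

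Type I collagen, to which thrombospondin 4 and COMP bind, fell. Col1a1 went from 153493 ± 45287 to 79643 ± 24142 CPM (log2 fold change -0.95, adjusted p = 0.00170). The 5 members summed to 6048 ± 677 CPM in wild type and 6538 ± 816 CPM in knockout libraries, given without a test. They took 0.541% ± 0.0357 of the counts in wild type and 0.725% ± 0.0891 in knockout libraries, and Col1a1 with Col1a2 took 23.1% ± 5.36 and 13.2% ± 3.31 (SD, n = 8). Shares of total counts carry the general shift on that scale, where the median tested gene had a log2 fold change of 0.32. The ratio of each member to Col1a1, chosen after these values were seen and given without a test, was higher in the knockout. Since Col1a1 itself fell by 0.95, a gene without change gains about as much in this ratio. The median tested gene changed by 0.02 and Thbs4 by 0.02. A higher ratio is therefore not by itself a rise of the member. On the log2 scale the Comp to Col1a1 ratio was -7.27 ± 0.553 in wild type and -5.98 ± 0.502 in knockout libraries, and 4 of 8 knockout libraries lay above every wild type library. Wild type 3 held the highest wild type value, -5.98, and without it all 8 knockout libraries were above. The Thbs4 to Col1a1 ratio was -5.34 ± 0.315 and -4.38 ± 0.570, with 5 of 8 knockout libraries above the wild type range and 7 of 8 without wild type 3. How many of all tested genes separate in this way on this ratio was not counted, so these counts are not particular to Comp or Thbs4. For Thbs1, Thbs2 and Thbs3 the differences were 1.73, 0.87 and 0.66. All 5 differences were larger without wild type 3, at 0.78 to 1.83.

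Members varied between libraries of 1 genotype in different ways. After the genotype means were removed, Thbs3 and Thbs4 had the highest Pearson correlation of any pair over the 16 libraries, 0.52, and Thbs1 and Comp the lowest, -0.51. Within the knockout Thbs1 and Comp were at -0.90 and Thbs2 and Thbs4 at 0.85 (n = 8). Within the wild type the same pairs were at -0.53 and 0.27 (n = 8). Thbs2 and Comp were at -0.78 within the wild type and at 0.51 within the knockout. These values are descriptions over libraries that share their depth and cell makeup between genes.

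Within each genotype Comp was lowest in the library with the most vessel markers, wild type 5 and knockout 7. The order did not hold throughout: wild type 3 had an endothelial sum of 49.3 CPM, below that of wild type 5 alone, and the highest wild type Comp, and knockout 6, at 383 CPM of endothelial markers, had Comp at 1162 CPM. Over the 16 genotype-centred libraries its correlation with the endothelial score, the mean log2 CPM of the tested endothelial markers, was -0.83, and with the mural score -0.78. Within genotypes the endothelial correlation was -0.65 among wild type and -0.85 among knockout libraries (n = 8). Summed endothelial markers reached 593 and 393 CPM in knockout 7 and 8, where Comp was lowest, and 44.0 and 65.4 CPM in knockout 2 and 3, where Comp was highest at 1554 and 1733 CPM. Its correlation was -0.81 with the adipocyte score, which rests on 1 tested marker, and -0.76 with the Schwann cell score. The endothelial score ran from 0.76 to 1.85 in the wild type and from 1.85 to 5.63 in the knockout, so score and genotype were nearly confounded. With that score as a covariate the log2 fold change of Comp was 0.96 (adjusted p = 4.85e-05), and with the skeletal muscle score 0.49 (adjusted p = 0.00328).

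Thbs1 went the other way, with correlations of 0.60 with the skeletal muscle score, 0.59 with the adipocyte score and 0.51 with the mural score over the 16 libraries. With the endothelial score Thbs1 was at 0.405 over the 16 libraries, 0.69 within the wild type and 0.60 within the knockout. With the endothelial score as a covariate its log2 fold change was -0.16 (adjusted p = 0.855). Its correlation with platelet and megakaryocyte markers was 0.09 over all, -0.23 within the wild type and 0.58 within the knockout. The summed level of these markers was 65.1 to 101 CPM in the wild type and 44.1 to 80.3 CPM in the knockout. The largest part of that sum was Pf4, at 44.9 to 82.2 CPM in wild type and 23.9 to 60.3 CPM in knockout libraries. Of the 4 tested markers Gp1bb was higher in the knockout, and Pf4 and Itga2b were lower. Whether the sum or the score measures platelet content was not tested. Thbs4 had its largest correlations with the keratinocyte score, at -0.60, the muscle score, at -0.55, and the platelet and macrophage scores, both at 0.54. The keratinocyte score rests on 2 tested markers, Dsp and Krt10, while Krt5 had at most 1 count and Krt14 at most 3 counts in any library. With the tenocyte score Thbs4 was at 0.48 over all libraries, 0.78 within the wild type and 0.12 within the knockout. The correlation of Thbs2 with the muscle score was -0.0039 over all libraries and -0.71 within the knockout. The part of other cell types in these levels was not tested beyond the covariate values given.

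**Figure D4:**
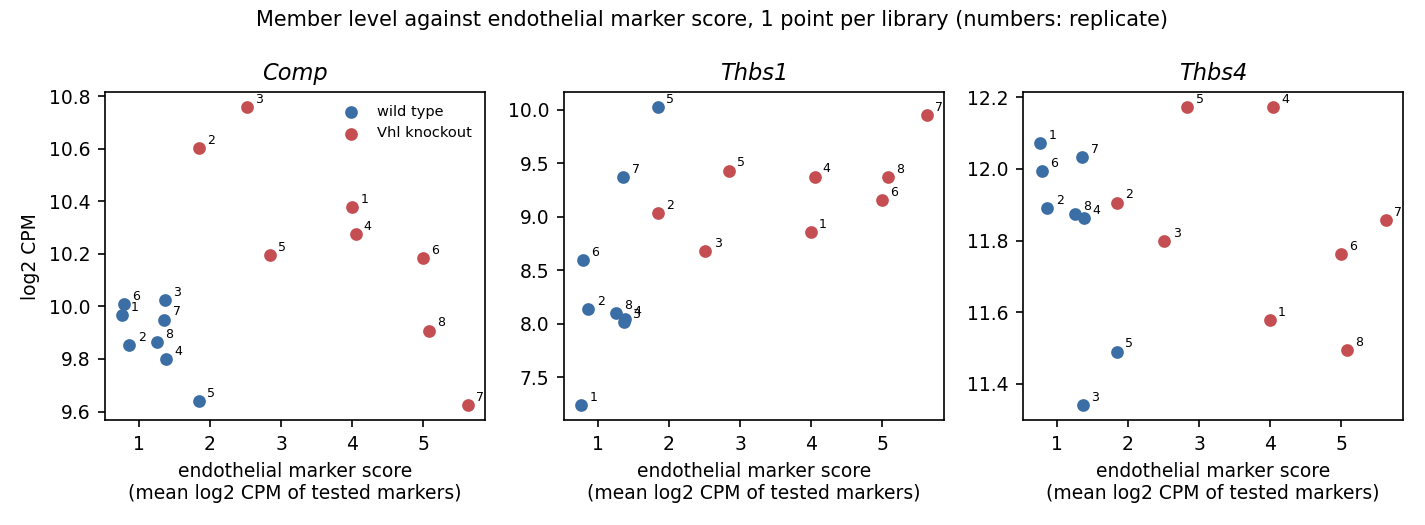
Log2 CPM of Comp, Thbs1 and Thbs4 against the endothelial marker score, with 1 numbered point per library, wild type in blue and Vhl knockout in red. Comp is lowest in the libraries with the highest score of each genotype, wild type 5 and knockout 7, and Thbs1 is highest in the same 2.

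The genes most like each member were ranked by Pearson correlation of genotype-centred log2 CPM over 16 libraries among 10466 genes with a mean log2 CPM of at least 3. For Thbs3 the closest was Mtx1, its head-to-head neighbour, at 0.86, and overlapping reads cannot be told apart from a shared pattern. For Comp they were Galnt18 (0.91), Dixdc1 (0.91) and Ddr2 (0.84), the last a collagen receptor. The correlation of Ddr2 with Comp was 0.40 within the wild type and 0.94 within the knockout (n = 8). Between genotypes Ddr2 fell by 0.80 (adjusted p = 5.29e-07). For Thbs4 they were Tmem189 (0.91), Leo1 (0.87) and Os9 (0.86), for Thbs2 Mapk6 (0.82), Slc7a6 (0.81) and Erlec1 (0.81), and for Thbs1 Arhgap21 (0.88), Dennd4a (0.87) and Ndrg2 (0.84). Arhgap21 was at 0.95 within the wild type and 0.48 within the knockout, and Ndrg2 at 0.89 and 0.58 (n = 8). Values of other chromosomal neighbours are given without a test against the members. Serinc5, nearest to Thbs4 on one side, fell by 0.76 (adjusted p = 9.57e-08) while Mtx3 on the other side differed by 0.02 (adjusted p = 0.818). Smoc2, nearest to Thbs2, rose by 1.31 (adjusted p = 4.91e-05). Crtc1, which lies 289 bases from Comp in the annotation, differed by -0.22 (adjusted p = 0.123).

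Genes that act with thrombospondins were read from 5 lists, and most named genes are those with the largest changes in each direction. Tgfb1, Ccn2 and Adamts12, which did not pass, are named for their known roles. Cell surface receptors and binding partners comprised 24 tested genes, of which 13 were higher and 4 lower (70.8% called against 48.3% of all genes, median log2 fold change 0.26). Vldlr, a lipoprotein receptor that thrombospondin 1 can bind, was at 45.6 ± 15.4 CPM in wild type and 484 ± 99.7 CPM in knockout libraries without overlap, and rose by 3.41 on the log2 scale (adjusted p = 1.66e-10). Its relative Lrp8 rose by 1.36 (adjusted p = 3.09e-05). Notch3, a receptor of mural cells to which thrombospondin 2 binds, rose by 4.22 from 3.68 ± 1.13 to 68.6 ± 58.9 CPM, and its ligand Jag1 by 1.27. Notch3 belongs to the mural marker list, whose summed level ran from 359 to 504 CPM over wild type and from 375 to 2238 CPM over knockout libraries. With the endothelial score as a covariate Notch3 was at 0.95 and Jag1 at 0.36, the latter no longer past the threshold (adjusted p = 0.198). Sdc1, a heparan sulfate proteoglycan of the cell surface, fell by 2.44 from 229 ± 54.3 to 42.2 ± 4.15 CPM (adjusted p = 1.04e-11). The integrin subunits Itga6 and Itgb5 fell by 0.65 and 0.54, and with the endothelial score as a covariate they were at -0.51 (adjusted p = 0.0892) and -0.31 (adjusted p = 0.0970). The endocytic receptor Lrp1 fell by 0.41 (adjusted p = 0.00960), and it was at -0.10 with total counts (adjusted p = 0.453) and at -0.31 with the endothelial covariate (adjusted p = 0.321). The classical receptors of thrombospondin 1, named after their values were seen, both rose: Cd36 by 0.83 (adjusted p = 8.33e-05) and Cd47 by 0.34 (adjusted p = 3.52e-04).

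Matrix partners comprised 21 tested genes, 5 higher and 10 lower (71.4% called, median -0.36). The matrilins, which bridge COMP to other matrix proteins, were lower. Matn3, at 19.4 ± 4.95 CPM in wild type and 1.18 ± 0.495 CPM in knockout libraries, fell by 4.02 (adjusted p = 3.79e-11) and Matn4 by 2.53 from 36.9 ± 11.7 to 6.38 ± 2.94 CPM (adjusted p = 1.55e-06). The third measured matrilin, Matn2, also named after its values were seen, fell by 1.05 (adjusted p = 8.15e-07), and Matn1 had at most 1 count in any library. Fbln1, which encodes a matrix glycoprotein of elastic fibres and basement membranes, fell by 1.80 (adjusted p = 1.02e-06), and Col1a2 by 1.44 (adjusted p = 6.01e-06). In the other direction, the cartilage proteoglycan Acan rose by 3.34, Col3a1 by 1.89 and the fibronectin gene Fn1 by 1.57. The small proteoglycan gene Bgn rose from 821 ± 133 to 1778 ± 134 CPM. None of these 4 overlapped between genotypes.

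Of 20 genes of latent TGF-beta and its known targets, 6 were higher and 6 lower (60.0% called, median -0.02). Tgfb1, whose latent product thrombospondin 1 can activate, was at 32.8 ± 3.46 and 32.5 ± 5.13 CPM (log2 difference -0.01, adjusted p = 0.907). Tgfb2 fell by 0.41 (adjusted p = 0.00960), and it was at -0.10 with total counts (adjusted p = 0.438) and at -0.38 with the endothelial covariate (adjusted p = 0.229). The latent binding proteins diverged: Ltbp1 fell by 2.39 and Ltbp4 by 1.22, whereas Ltbp2 rose by 1.74. The co-receptor Tgfbr3 fell by 1.10. Among genes that TGF-beta induces, Postn rose by 5.04 (18.5 ± 25.1 to 608 ± 549 CPM) and Tgfbi by 0.76, while Ccn2 differed by 0.38 with wide spread (adjusted p = 0.428). With the endothelial score as a covariate Postn was at 2.38 (adjusted p = 0.0323).

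Proteases comprised 16 tested genes, 5 higher and 6 lower (68.8% called, median 0.00). Adamts4, which cleaves COMP and aggrecan, rose by 1.91 from 1.17 ± 0.492 to 4.40 ± 1.90 CPM, and Mmp3 and Mmp19 rose by 1.35 and 1.23. Mmp13 rose by 4.60, from 0.293 ± 0.180 CPM, which is at most 7 counts in a wild type library. Adamts7, another COMP-cleaving enzyme, named after its value was seen, fell by 0.52 (adjusted p = 0.00102). Adamts12, which also cleaves COMP, differed by 0.36 (adjusted p = 0.241). Tll1, Ctsk, Bmp1 and Htra1 fell by 1.01, 0.71, 0.57 and 0.52. Htra1 was at -0.20 with total counts (adjusted p = 0.158), at -0.50 with the replicate block (adjusted p = 0.0502) and at -0.51 without knockout 5, 6 and 8 and wild type 8 (adjusted p = 0.0501). With the endothelial score as a covariate 5 of the 8 protease genes named by the rule were no longer past the threshold. Mmp19 was then at 0.10 (adjusted p = 0.834), Htra1 at -0.043 (adjusted p = 0.917) and Adamts4 at 1.02 (adjusted p = 0.0717). Ctsk was at -0.32 (adjusted p = 0.183) and Bmp1 at -0.34 (adjusted p = 0.179).

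Genes outside the family whose proteins carry thrombospondin type 1 repeats comprised 23 tested genes, 6 higher and 7 lower (56.5% called, median -0.14). Spon1 rose by 3.07 (5.63 ± 0.917 to 47.0 ± 36.6 CPM), Thsd4, which encodes a fibrillin-binding protein, by 2.50 (7.76 ± 2.28 to 44.2 ± 10.8 CPM), Papln by 1.15 and the netrin receptor gene Unc5b by 0.91. Adgrb2, Unc5c, Ccn4 and Spon2 fell by 2.32, 2.08, 1.32 and 1.22. With the endothelial score as a covariate 12 of the 40 genes named by the rule lost the threshold, among them Spon1, at 0.75 (adjusted p = 0.159), and Spon2, at 0.029 (adjusted p = 0.979). Without knockout 5, 6 and 8 and wild type 8, Spon2 was at -1.16 and no longer past the threshold (adjusted p = 0.0689). Exons of Notch3, Matn2, Matn4, Col3a1, Fn1, Tgfb2, Ltbp2, Tgfbr3, Ccn2, Adamts4, Adamts7, Mmp19 and Unc5c overlap another annotated gene. Their counts are less certain for that reason. The largest shares of exon bases were 23.2% for Ccn2, against a gene that is not counted, and 22.3% for Mmp19 against Tmem198b.

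**Figure D5:**
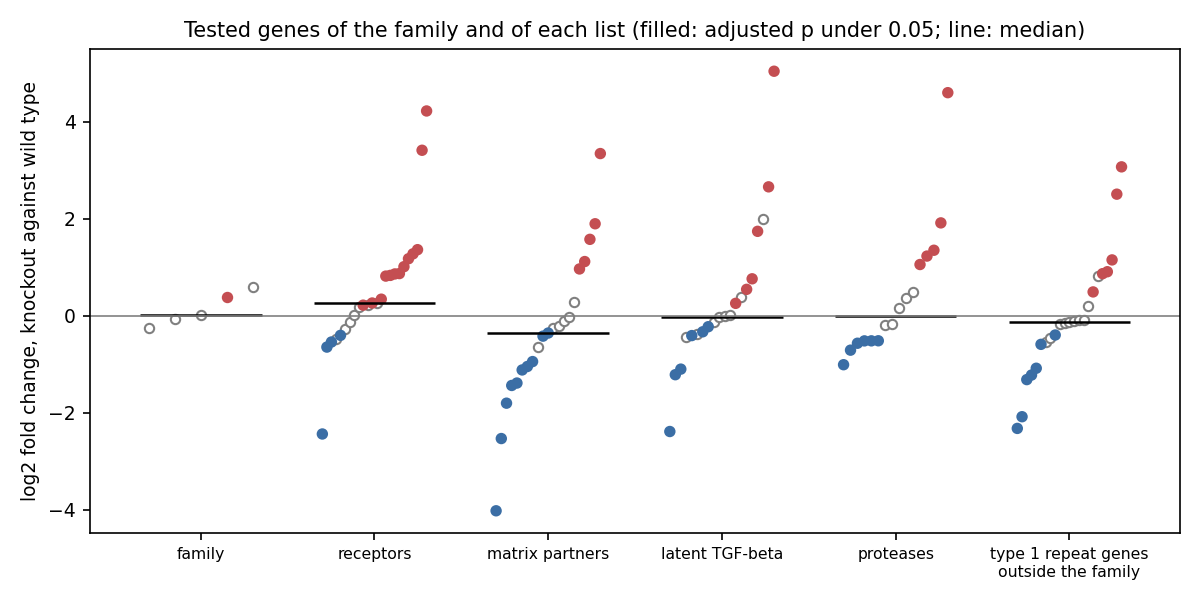
Log2 fold change, knockout against wild type, of the tested genes of the family and of the 5 lists, sorted within each column, filled where the adjusted p is under 0.05 (red higher, blue lower), with the median as a line. The 5 family members lie between -0.25 and 0.58, within the range of every list.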

How the data were processed

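RNA-seq counts from 16 libraries of mouse tail tendon fascicles were used as deposited, 8 per genotype as given in the titles. Per the file headers each deposited file holds matched counts per gene, in whole numbers. kallisto, featureCounts and the build GRCm39 are named in the submitters' processing notes without role. The annotation and strand of counting are not given in the sources used here. Of 25719 identifiers 25614 had a symbol. Exon lengths, overlaps and neighbours came from GENCODE M21 (GRCm38).

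The main test was edgeR 4.0.16 (R 4.3.3): quasi-likelihood F test, robust, TMM scaling, default expression filter, genotype as the only term, two-sided, with Benjamini-Hochberg adjustment over 14803 genes and a threshold of 0.05. The standard error is the log2 fold change divided by the square root of F, and 95% intervals are 1.96 such errors wide on each side. Log2 CPM used a prior count of 2. A count of 3 was the floor, 0.145 to 0.336 CPM. Pair ratios were tested over all 12870 assignments. Alternatives used DESeq2 1.42.0, limma 3.58.1 and sva 3.50.0. The fit was tested on simulated data. No 2 libraries were repeats: the lowest chi-square per degree of freedom was 6.56. Nothing in the labels says the libraries come from separate mice, so p-values measure the spread between libraries.

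The members and lists were chosen with earlier results of these data known. Named genes are the members, up to 4 list genes in each direction past the threshold with a mean log2 CPM of at least 1, the 3 genes most like each member, and chromosomal neighbours. A gene that this rule names is not reported here. Keratinocyte, macrophage, erythroid and chondrocyte markers were read as well: summed levels were 20.7 to 49.0, 1120 to 1608, 15.1 to 50.8 and 832 to 1815 CPM in the wild type and 12.5 to 18.1, 1257 to 1830, 77.8 to 563 and 154 to 499 CPM in the knockout. Krt1 was at 0 in all libraries. Of the tested markers 2 of 5 Schwann cell, 1 of 1 adipocyte, 5 of 5 erythroid and 3 of 8 macrophage genes were higher, and 2 of 2 keratinocyte genes lower, in the knockout. Of 7 tested chondrocyte genes 3 were higher, Acan, Sox9 and Hapln1, and 2 were lower, Matn3 and Col11a2. The largest part of the chondrocyte sum was Col11a2, at 1201 ± 316 CPM in wild type and 147 ± 87.3 CPM in knockout libraries.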

Additional observations from a re-analysis of the deposited data

Results flagged for a closer look

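In 120 checks of 8 libraries each, over members, ratios and named list genes, an extreme library was separated from its group by Dixon's criterion in 9, where chance gives about 1 in 20, or 6.00. The checks are not independent, since ratios share members. Values are in log2 units, and no cause was tested.

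Wild type 3 stood apart in 4 checks: the Thbs4 to Comp ratio was 1.32 (next lowest 1.85), the Thbs4 to Col1a1 ratio -4.66 (next highest -5.20), the Comp to Col1a1 ratio -5.98 (next highest -7.21) and Col1a2 15.51 log2 CPM (next lowest 16.42). Wild type 5 stood apart in the Thbs2 to Thbs4 ratio, at -1.28 (next highest -1.91). Wild type 8 was lowest for Fn1, at 9.95 (next 10.37), and for Papln, at -0.27 (next 0.88). Among knockout libraries, number 3 was highest for Bgn, at 11.03 (next 10.80), and number 5 lowest for Fbln1, at 3.92 (next 4.66).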

How the results depend on the processing

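Comp kept its direction and its side of the threshold in all 28 alternatives. With total counts Thbs1 passed at 0.88, Thbs2 turned to 0.23 and passed, Thbs3 turned to 0.069 without passing and Thbs4 passed at 0.34, on a scale whose median gene is at 0.32. With the endothelial score as a covariate Thbs1 turned to -0.16, Thbs2 to 0.053 and Spon2 to 0.029, none past the threshold, and 4228 genes in all, 7 latent TGF-beta genes and 7 proteases passed, against 7151, 12 and 11. The cause was not tested, and score and genotype are nearly confounded. With limma-voom and quality weights Thbs3 passed at -0.34 and Thbs4 turned to -0.036. The replicate block, for numbers whose pairing the labels do not state (correlations of same-numbered libraries -0.40 to 0.39, 3 of 8 above 0.1), gave calls for Thbs1 at 0.80 and Thbs3 at -0.27 and 7010 genes in all. Only 2 of 16 libraries correlated best with their own number. Leaving out 1 library at a time gave log2 fold changes of 0.46 to 0.93 for Thbs1, passing without wild type 5, -0.32 to -0.18 for Thbs3, passing without knockout 4, and -0.046 to 0.068 for Thbs4, negative without wild type 3 or 5 or knockout 4 or 5. Pair ratio differences then ranged over 0.69 to 1.03 for Thbs1 to Thbs2, 0.87 to 1.32 for Thbs1 to Thbs3, 0.56 to 1.04 for Thbs1 to Thbs4, -0.51 to -0.33 for Thbs2 to Comp, -0.13 to 0.013 for Thbs2 to Thbs4, -0.36 to -0.21 for Thbs3 to Thbs4, -0.72 to -0.49 for Thbs3 to Comp and -0.42 to -0.25 for Thbs4 to Comp. Passing needed the loss of wild type 3, 5 or 7 or knockout 1, 3, 4, 6 or 7. Per kb of coding sequence the means were 147 CPM for Thbs1, 254 for Thbs2, 32.9 for Thbs3 and 484 for Comp. Without centring, 0 of the 3 genes most like Thbs1 and 1 of 3 each for Thbs2 and Thbs4 were kept. Without knockout 5, 6 and 8 and wild type 8, Comp was at 0.47 (edgeR adjusted p = 0.0227) and no other member was called.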
